A study of Mus musculus with 2 samples.

Results

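The genes described here are 3 receptors of the EGF receptor family, Egfr, Erbb2 and Erbb3, and 4 of the ligands that bind EGFR, Areg, Ereg, Hbegf and Tgfa. They were chosen by gene symbol, and these 7 are all of the symbols asked for, among 32285 genes in each count matrix. Their levels were read in cells of whole CT26 tumours by droplet single-cell RNA sequencing of transcript 3' ends. CT26 is a mouse colorectal carcinoma line. It was implanted subcutaneously in BALB/c mice, 5 weeks old when assigned and wild type by label. Once tumours measured about 100 mm³, mice received vehicle or WQ-2101, given into the peritoneum once a day at 20 mg/kg, and all tumours were taken on day 17 after implantation. The series title presents the treatment as inhibition of PHGDH, an enzyme of serine synthesis. How many mice gave cells to a library was not stated in the labels, and both libraries carry the same batch label. Because there was 1 library per group, no value below has a replicate error and no test of the treatment was made. Intervals are exact 95% intervals and cover counting error only.

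EGFR family receptors are tyrosine kinases that pair when a ligand binds and then signal through RAS and ERK and through PI3 kinase. ERBB2 binds no ligand of its own and acts as a partner, whereas ERBB3 has little kinase activity and signals through its partner after binding a neuregulin. Amphiregulin (Areg), epiregulin (Ereg), heparin-binding EGF-like growth factor (Hbegf) and TGF-alpha (Tgfa) are made as membrane proteins and released by metalloproteinases such as ADAM17. In tumours these ligands can come from the cancer cells themselves or from macrophages and T cells around them. Regulatory T cells are a known source of amphiregulin.

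The vehicle library held 184754398 unique molecular identifiers (UMIs, each counted as 1 captured transcript) and the WQ-2101 library 185587327, and 13668 and 17293 cells were kept, with medians of 10742.5 and 8048 UMIs. The libraries shared 73 cell barcodes (0.508% and 0.402% of their barcodes), which were kept. Cells were gated on marker genes into tumour cells (6585 in vehicle and 8419 in WQ-2101), macrophages and monocytes (4661 and 4562), T cells (583 and 677), neutrophils (202 and 81), fibroblasts (145 and 51) and dendritic cells (67 and 51). Fewer than 50 cells in at least 1 library were gated as NK cells (47 and 61), endothelial cells (39 and 11), mural cells (20 and 17) and B cells (10 and 249). Tumour cells were gated on Hmga2, Krt14, Igf2bp2 and Igf2bp3. These markers summed to 1474 and 1652 counts per 1000000 UMIs (CPM) in the tumour class. The markers of each large class were far higher in it than in the others. Gating on the same markers sets this in advance, so it is no check on the classes. Libraries also differed in a cluster of low-UMI barcodes that mixed tumour and macrophage RNA: it supplied 0.665% of macrophages in vehicle against 18.3% in WQ-2101, and 0.38% against 5.89% of tumour cells. Tumour markers summed to 67.9 CPM in vehicle macrophages and 142 CPM in WQ-2101 macrophages. Macrophage markers in the tumour class were at 170 and 193 CPM.

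The strongest Egfr signal did not lie in the cancer cells but in fibroblasts and mural cells, while Erbb2 was read mainly from tumour cells. Egfr is the receptor for all 4 ligands. In the GRCm38 build its gene spans chr11:16752203-16918158 on the forward strand (ENSMUSG00000020122). Its level in fibroblasts was 372 CPM in vehicle (342 to 404, 572 UMIs) and 518 CPM in WQ-2101 (453 to 591, 226 UMIs). Mural cells came next, at 84.0 CPM (10 UMIs in 20 cells) and 231 CPM (17 UMIs in 17 cells). Fibroblast markers had a median of 838 and 148 CPM in these mural cells, against 4558 and 3918 CPM in fibroblasts. The part of fibroblast RNA in the mural reading was not tested. Tumour cells held 4.45 CPM (4.08 to 4.85, 533 UMIs) and 4.96 CPM (4.58 to 5.37, 613 UMIs), so the fibroblast level lay far outside the tumour interval in both libraries. Macrophages held 0.976 and 1.88 CPM. No Egfr UMI was read in B, NK or endothelial cells. The exact upper limits in vehicle and WQ-2101 were 13.1 and 11.2 CPM in NK cells and 12.2 and 66.2 CPM in endothelial cells. In B cells they were 211 and 9.04 CPM. All lie above the tumour level, so these cells cannot be placed below it. After each cell was thinned to 2000 UMIs, an Egfr UMI was seen in 38.2% of 136 vehicle fibroblasts (30.0 to 47.0) and 50% of 48 WQ-2101 fibroblasts (35.2 to 64.8), against 0.762% and 0.949% of tumour cells. Unthinned, the fibroblast shares were 81.4% and 70.6%, and those of tumour cells 5.88% and 5.77%.

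**Figure D1:**
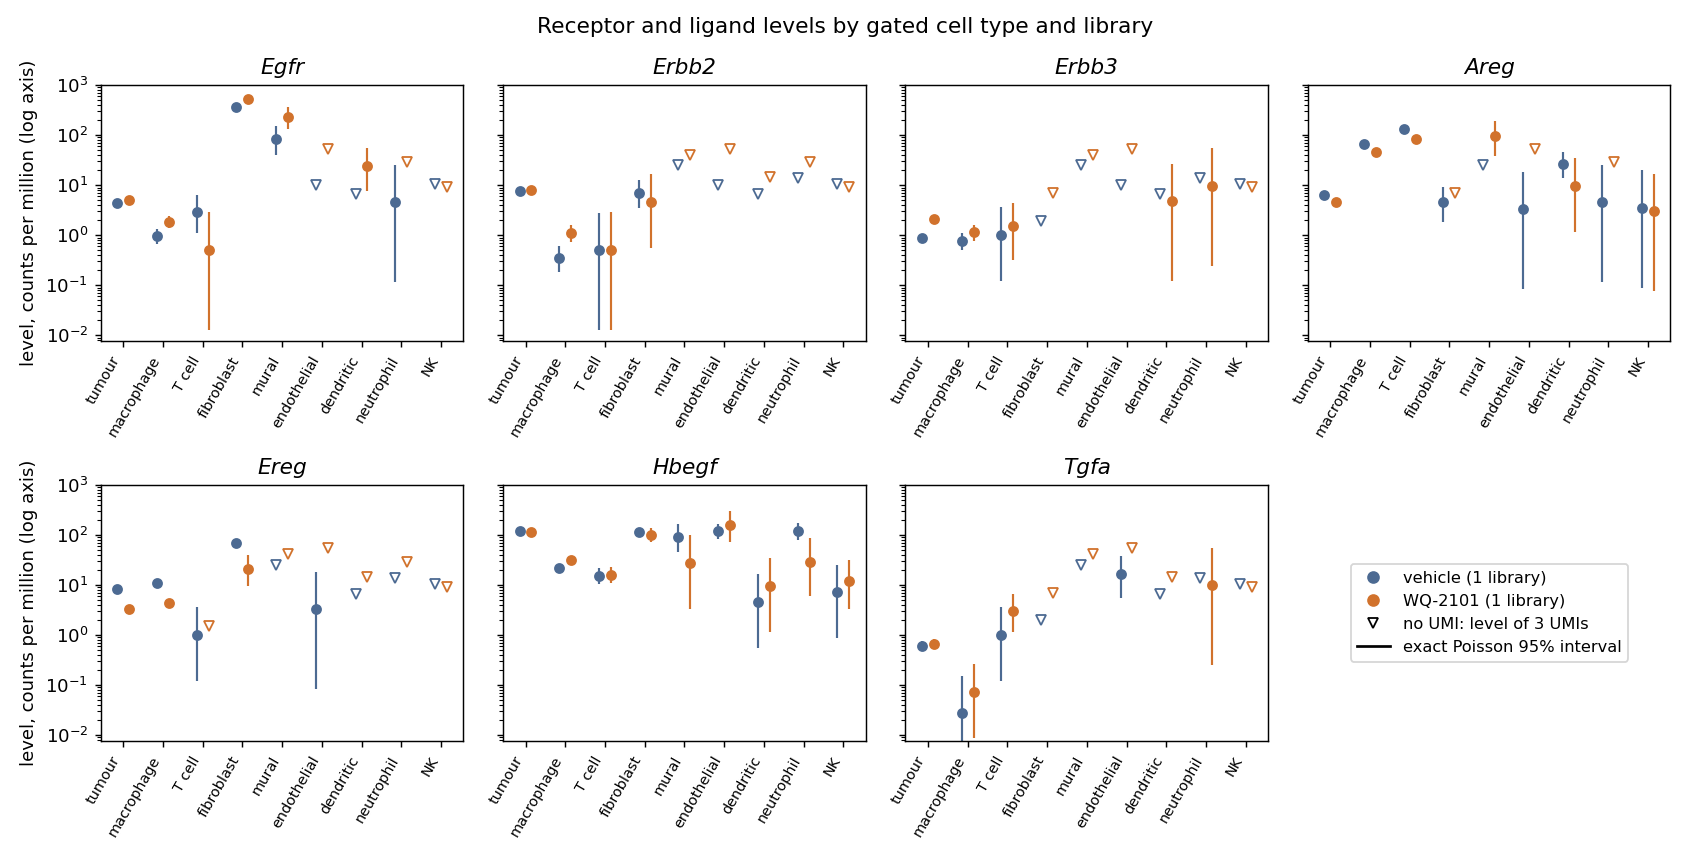
Level of each gene in CPM (log axis) by gated cell type, vehicle in blue and WQ-2101 in orange, 1 library each, with exact Poisson 95% intervals; open triangles mark the level of 3 UMIs where no UMI was read. Egfr reaches 372 and 518 CPM in fibroblasts, Areg 133 and 84.5 CPM in T cells, and Hbegf 122 and 114 CPM in tumour cells.

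Because tumour cells were so many, they still held a large part of all Egfr molecules. Fibroblasts made up 1.06% of vehicle cells and held 43.4% of the library's Egfr UMIs (40.7 to 46.1), and in WQ-2101 they made up 0.295% of cells and held 21.5% (19.0 to 24.1). These shares depend on the marker gate, which gave 145 and 51 fibroblasts. The Leiden cluster named as fibroblasts held 266 vehicle and 227 WQ-2101 cells, so no change in fibroblast number or in their Egfr share is read from the gate. Tumour cells held 40.4% in vehicle and 58.3% in WQ-2101. The ratio of Egfr in fibroblasts, WQ-2101 over vehicle, was 1.39 (1.19 to 1.63) with the marker gate. It turned below 1 when the class was taken from Leiden clusters, where the log2 ratio of CPM plus 5 was -0.62 in place of 0.47, so no direction is given for fibroblast Egfr. Over the whole tumour class Egfr differed less than its counting error, at a ratio of 1.11 (0.99 to 1.25). By cluster, tumour Egfr was higher in WQ-2101 in 6 of 8 tumour clusters and lower in 2. The interval of the ratio lay above 1 in 3 clusters and below 1 in 0. With tumour clusters weighted to equal shares in the libraries, Egfr stood at 3.92 and 5.07 CPM, a ratio of 1.29.

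Erbb2, the ligand-less partner receptor (chr11:98412470-98437716, forward strand, ENSMUSG00000062312), had most of its UMIs in tumour cells. It stood at 7.66 CPM (7.18 to 8.18, 917 UMIs) in vehicle tumour cells and 8.03 CPM (7.54 to 8.55, 992 UMIs) in WQ-2101 tumour cells, a ratio of 1.05 (0.957 to 1.15). Tumour cells held 92.5% of its UMIs in vehicle and 86.1% in WQ-2101, although they held 69.4% and 70.9% of all UMIs. Fibroblasts held 7.16 CPM (3.57 to 12.8, 11 UMIs) and 4.59 CPM (0.556 to 16.6, 2 UMIs), intervals that contain the tumour level, so the level per UMI was not apart between these classes. Macrophages had 13 and 30 Erbb2 UMIs and T cells 1 and 1. The macrophage values, 0.353 and 1.11 CPM, were higher in WQ-2101 by a ratio of 3.14 (1.59 to 6.56), beside the rise in tumour markers in that class given above. Without the low-UMI mixture they were 0.353 and 0.662 CPM, a ratio of 1.87, and with free RNA subtracted 0 and 0.416 CPM.

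Erbb3, the neuregulin receptor (chr10:128567523-128589652, reverse strand, ENSMUSG00000018166), was the rarest of the 3 receptors and, of these, the one with the largest CPM ratio between libraries in tumour cells. It was read at 0.886 CPM (0.725 to 1.07, 106 UMIs) in vehicle and 2.15 CPM (1.90 to 2.43, 266 UMIs) in WQ-2101 tumour cells, a ratio of 2.43 (1.93 to 3.07). Both levels are under the minimum mean of 5 CPM set for counting a gene, and on the scale of CPM plus 5 the log2 ratio was only 0.28 (0.21 to 0.35). The level was higher in WQ-2101 in 7 of the 8 tumour clusters with at least 50 cells in each library, and the counting interval excluded a ratio of 1 in 4 of them. A UMI was seen in 1.47% of vehicle and 2.85% of WQ-2101 tumour cells. Tumour cells held 69.7% and 79.4% of Erbb3 UMIs, beside 69.4% and 70.9% of all UMIs. Macrophages held 28 and 31 Erbb3 UMIs and T cells 2 and 3. In the plot of levels, the WQ-2101 points of Erbb3 in dendritic cells and neutrophils rest on 1 UMI each.

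Among the ligands, Hbegf UMIs lay mainly in tumour cells, Areg UMIs in macrophages, and Ereg UMIs in tumour cells and macrophages. By level, of the 6 classes with at least 50 cells in each library, Areg was highest in T cells and Ereg in fibroblasts. Tgfa was near the floor. Hbegf encodes a ligand that binds EGFR and ERBB4. Its level in tumour cells was 122 CPM (119.9 to 124, 14580 UMIs) in vehicle and 114 CPM (112 to 116, 14107 UMIs) in WQ-2101. Tumour cells held 87.6% and 84.7% of its UMIs. Fibroblasts reached 115 CPM (98.2 to 133) and 101 CPM (73.3 to 136), and endothelial cells 119.5 CPM (83.7 to 165, 36 UMIs) and 161 CPM (73.8 to 306, 9 UMIs). In each library these intervals hold the tumour level, so the order of these 3 classes cannot be told. Vehicle neutrophils (78.5 to 176 CPM, 26 UMIs) and vehicle mural cells (46.1 to 165 CPM, 11 UMIs) also held it. Their WQ-2101 intervals, 6.08 to 86.1 CPM and 3.29 to 98.2 CPM, lay below it. Macrophages held 21.7 CPM (20.2 to 23.3) and 31.9 CPM (29.8 to 34.1), and T cells 15.4 and 15.9 CPM. An Hbegf UMI was seen in 20.1% of vehicle and 18.2% of WQ-2101 tumour cells thinned to 2000 UMIs (66.9% and 60.2% unthinned), against 0 of 41 and 1 of 49 NK cells and 1 of 43 WQ-2101 B cells thinned the same way. With free tumour RNA subtracted, the macrophage level was 16.1 and 22.1 CPM. With free RNA of both tumour cells and macrophages subtracted, the T cell level was 9.35 and 8.34 CPM.

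Areg had a different map. Amphiregulin is released by immune cells in damaged tissue as well as by epithelia. In T cells the level was 133 CPM (117 to 149.6, 267 UMIs) in vehicle and 84.5 CPM (72.1 to 98.5, 165 UMIs) in WQ-2101. In macrophages and monocytes it was 66.6 CPM (64.0 to 69.3, 2456 UMIs) and 45.5 CPM (43.0 to 48.1, 1233 UMIs). In tumour cells it was 6.30 CPM (754 UMIs) and 4.57 CPM (564 UMIs). The order T cell, macrophage, tumour cell was the same in both libraries, and the intervals of these levels, which count UMIs, did not overlap. Dendritic cells had 27.0 CPM (12 UMIs) and 9.57 CPM (2 UMIs). Mural cells had no UMI in 20 vehicle cells and 95.1 CPM (38.2 to 196, 7 UMIs) in 17 WQ-2101 cells, an interval that contains the T cell level. Macrophages, with 21.4% and 15.5% of all UMIs, held 63.3% (61.7 to 64.8) and 54.4% (52.3 to 56.5) of Areg UMIs, tumour cells 19.4% and 24.9%, and T cells 6.88% and 7.28%. A UMI was seen in 6.25% of vehicle and 4.49% of WQ-2101 macrophages after thinning (11.1% and 7.30% unthinned), and in 0 of 41 and 1 of 49 NK cells and 0 of 43 WQ-2101 B cells.

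Areg and Ereg are neighbours on chromosome 5, with Ereg at chr5:91074622-91093646 (ENSMUSG00000029377) and Areg at chr5:91139599-91148432 (ENSMUSG00000029378), both on the forward strand and 45952 bases apart. The Areg promoter is shown because macrophages and T cells held most Areg UMIs and this promoter is known for a cyclic AMP response element (CRE). The 250 bases before the start of Areg, chr5:91139349-91139598 in GRCm38.p6 from RefSeq, forward strand, 5′ to 3′, follow on the next line. Capitals mark the CRE, searched as TGACGTCA. They also mark the TATA box, searched as TATAAA. Both strands were searched, and the matches do not overlap.
Areg: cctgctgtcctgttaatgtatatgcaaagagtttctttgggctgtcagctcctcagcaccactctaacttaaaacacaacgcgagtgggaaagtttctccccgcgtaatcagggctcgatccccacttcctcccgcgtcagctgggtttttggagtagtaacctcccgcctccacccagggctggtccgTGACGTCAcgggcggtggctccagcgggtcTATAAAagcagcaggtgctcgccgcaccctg
The CRE match ran from 61 to 54 bases before the start and the other match from 31 to 26. Of 32851 promoters in the table, cut to the same 250 bases, 1.55% held the first motif and 12.4% the second. The table had 4 of the 7 genes (Areg, Egfr, Erbb2, Tgfa), and Areg alone of these held either motif. A match is a description of letters, not of a bound site.

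Ereg was lower in the WQ-2101 library in tumour cells, in macrophages taken as a class, and in fibroblasts. Epiregulin binds EGFR and ERBB4 and is made with amphiregulin in many epithelial tumours. Its highest level was in fibroblasts, 68.3 CPM (55.9 to 82.7, 105 UMIs) in vehicle and 20.6 CPM (9.44 to 39.2, 9 UMIs) in WQ-2101. Macrophages held 10.8 CPM (9.79 to 11.9, 399 UMIs) and 4.39 CPM (3.64 to 5.26, 119 UMIs). Tumour cells held 8.21 CPM (7.70 to 8.74, 982 UMIs) and 3.25 CPM (2.94 to 3.58, 401 UMIs). The vehicle and WQ-2101 intervals of these levels did not overlap in any of the 3. They count UMIs, and in vehicle fibroblasts 82.9% of Ereg UMIs lay in the top 10% of cells. An Ereg UMI was seen in 20.7% of vehicle fibroblasts (14.4 to 28.2) and 9.80% of WQ-2101 fibroblasts (3.26 to 21.4), unthinned, so these intervals overlap. Those of macrophages (2.42% and 0.964% of cells) and tumour cells (8.08% and 3.33%) did not. Tumour cells held 61.0% and 66.7% of Ereg UMIs and macrophages 24.8% and 19.8%. T cells had 2 and 0 Ereg UMIs, and B and NK cells none. Tgfa (chr6:86195223-86275719, forward strand, ENSMUSG00000029999) stood at 0.602 CPM (72 UMIs) and 0.656 CPM (81 UMIs) in tumour cells, a ratio of 1.09 (0.783 to 1.52), with 5 UMIs in 39 vehicle endothelial cells and at most 6 in any other gated class.

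**Figure D2:**
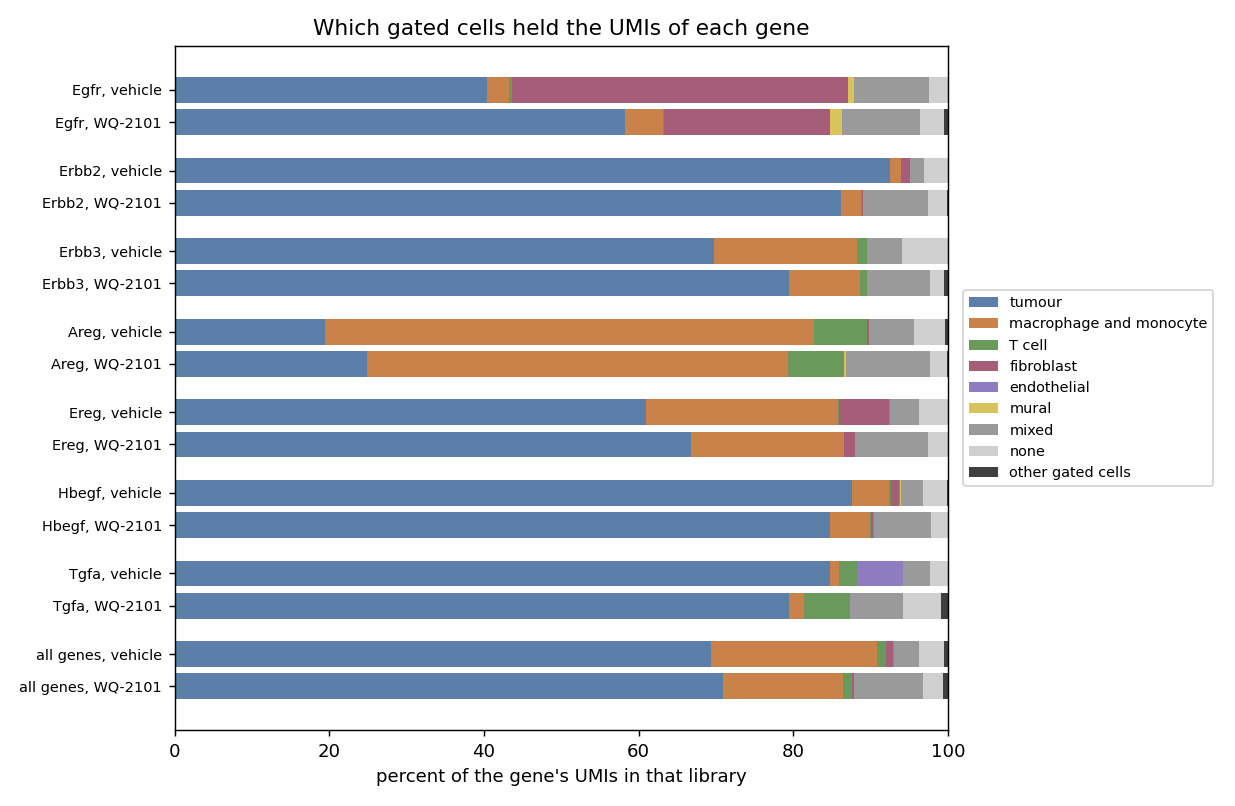
Percent of each gene's UMIs that lay in each gated cell type, by library, with all genes together in the lowest pair of bars. Egfr UMIs split between tumour cells (40.4% and 58.3%) and fibroblasts (43.4% and 21.5%), Areg lay mostly in macrophages (63.3% and 54.4%) and Hbegf in tumour cells (87.6% and 84.7%).

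Ligand and receptor levels were then set side by side. Summed over Areg, Ereg, Hbegf and Tgfa, tumour cells held 137 CPM (134.9 to 139) in vehicle and 123 CPM (121 to 125) in WQ-2101, of which Hbegf was 89.0% and 93.1%. T cells held 150.1 CPM (134 to 168) and 104 CPM (89.7 to 119), of which Hbegf was 10.3% and 15.3%. Macrophages held 99.2 CPM (96.0 to 102) and 81.9 CPM (78.5 to 85.4). Fibroblasts held 187 CPM (166 to 210) and 122 CPM (91.1 to 159), beside the 3 receptors at 379 and 523 CPM. The receptors summed to 13 and 15.1 CPM in tumour cells, to 2.09 and 4.14 CPM in macrophages and to 4.47 and 2.56 CPM in T cells. Of the 6 classes with at least 50 cells in each library, fibroblasts alone had both sums above 100 CPM in each library. Within vehicle fibroblasts thinned to 2000 UMIs, Egfr was seen in 41.7% of 24 cells with Hbegf (22.1 to 63.4) and 37.5% of those without it (28.5 to 47.1). In WQ-2101 fibroblasts the shares ran the other way, 30% of 10 cells (6.67 to 65.2) and 55.3% (38.3 to 71.4), and the intervals overlap in both libraries. Erbb4, the remaining receptor, had 5 and 10 UMIs in all tumour cells.

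Among macrophages, Ereg was seen more often in cells with Areg than in cells without it. After thinning, Ereg was seen in 8.24% of 279 Areg-positive vehicle macrophages (5.30 to 12.1) and 0.692% of Areg-negative ones (0.464 to 0.993). In WQ-2101 the shares were 4.86% of 185 (2.25 to 9.03) and 0.279% (0.140 to 0.499). In tumour cells the same shares were 3.08% of 65 (0.375 to 10.7) and 1.63% in vehicle, with overlapping intervals. Hbegf was seen in 6.45% of Areg-positive (3.87 to 10.0) and 3.65% of Areg-negative vehicle macrophages (3.11 to 4.27), and in 7.03% and 5.54% in WQ-2101. Cells of 1 library share its free RNA and dissociation, and these shares carry no test.

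Differences between the libraries were then counted against all genes, calling a gene past the fold at 1.5-fold or more in CPM plus 5 among genes with a mean of at least 5 CPM. In tumour cells 4 of the 7 genes were measured (Erbb2, Areg, Ereg and Hbegf), and 1 was past the fold, Ereg, lower in WQ-2101, where 1.28% of 10010 genes were past it, 0.859% higher and 0.42% lower. The CPM ratio was 0.396 (0.351 to 0.445) and the log2 ratio -0.68 (-0.76 to -0.60). The median log2 ratio of the measured genes was -0.17 and that of all genes -0.02. Areg had a log2 ratio of -0.24 (-0.32 to -0.16), Hbegf -0.09 (-0.12 to -0.06) and Erbb2 0.04 (-0.04 to 0.12). With tumour clusters weighted to equal shares in the libraries, Ereg stood at 7.71 and 3.49 CPM and its log2 ratio of -0.58 was just short of the fold. The Il1rl1 and Tafa1 cluster, where Ereg was highest, made up 23.3% of tumour cells in vehicle and 12.4% in WQ-2101.

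In macrophages and monocytes 3 genes were measured (Areg, Ereg and Hbegf), and again Ereg alone was past the fold, where 3.5% of 9489 genes were past it, 2.75% higher and 0.748% lower. Its CPM ratio was 0.406 (0.328 to 0.4995) and its log2 ratio -0.75 (-0.91 to -0.59). Areg was lower by a CPM ratio of 0.6835 (0.638 to 0.732, log2 -0.50), short of the fold, and Hbegf higher by 1.47 (1.33 to 1.62, log2 0.47). The median log2 ratio was -0.50 for the measured genes and 0.02 for all genes. Without the low-UMI mixture the Hbegf ratio was 1.26 and the Areg ratio 0.749, and Ereg stayed at 0.397. With clusters weighted alike Ereg was 9.54 and 5.53 CPM, a log2 ratio of -0.47 that is no longer past the fold, Areg 63.1 and 49.3 CPM, and Hbegf 18.7 and 32.2 CPM, a log2 ratio of 0.65 that is past it.

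In T cells 2 genes were measured (Areg and Hbegf), and Areg was past the fold, lower in WQ-2101, where 6.27% of 9702 genes were past it, 3.27% higher and 3% lower. The median log2 ratio was -0.29 for the measured genes and -0.01 for all genes. The CPM ratio of Areg was 0.637 (0.5215 to 0.7765) and its log2 ratio -0.62 (-0.89 to -0.35), while Hbegf differed by less than counting error at 1.03 (0.606 to 1.75). These intervals count UMIs, and 94.0% and 100% of T cell Areg UMIs lay in the top 10% of cells. The share of T cells with an Areg UMI was 9.80% (7.21 to 12.9) and 6.65% (4.50 to 9.41) after thinning, with overlapping intervals. Unthinned it was 12.9% (10.3 to 15.9) and 7.83% (5.92 to 10.1). Foxp3-positive cells without Cd8, described below, were 49 of 583 and 37 of 677 T cells, whose part was not tested. With classes taken from Leiden clusters, T cell Areg had a log2 ratio of -0.56 and was not past the fold.

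In the smaller classes a large part of all genes was past the fold. In fibroblasts 4 genes were measured (Egfr, Erbb2, Ereg and Hbegf) and Ereg was past it, with a CPM ratio of 0.302 (0.134 to 0.596), where 23.4% of genes were past it, 12.7% higher and 10.7% lower. The median log2 ratio was -0.26 for the measured genes and 0.02 for all genes. In dendritic cells 3 were measured and all 3 were past it, Egfr and Hbegf higher and Areg lower, on at most 12 UMIs each, where 40.5% of genes were past it, 20.1% higher and 20.4% lower. In neutrophils Hbegf alone was measured and was past it, at 120.1 CPM (26 UMIs) and 29.5 CPM (3 UMIs), where 59.7% of genes were past it, 33.4% higher and 26.2% lower, and neutrophil markers summed to 43023 and 138319 CPM in those cells.

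**Figure D3:**
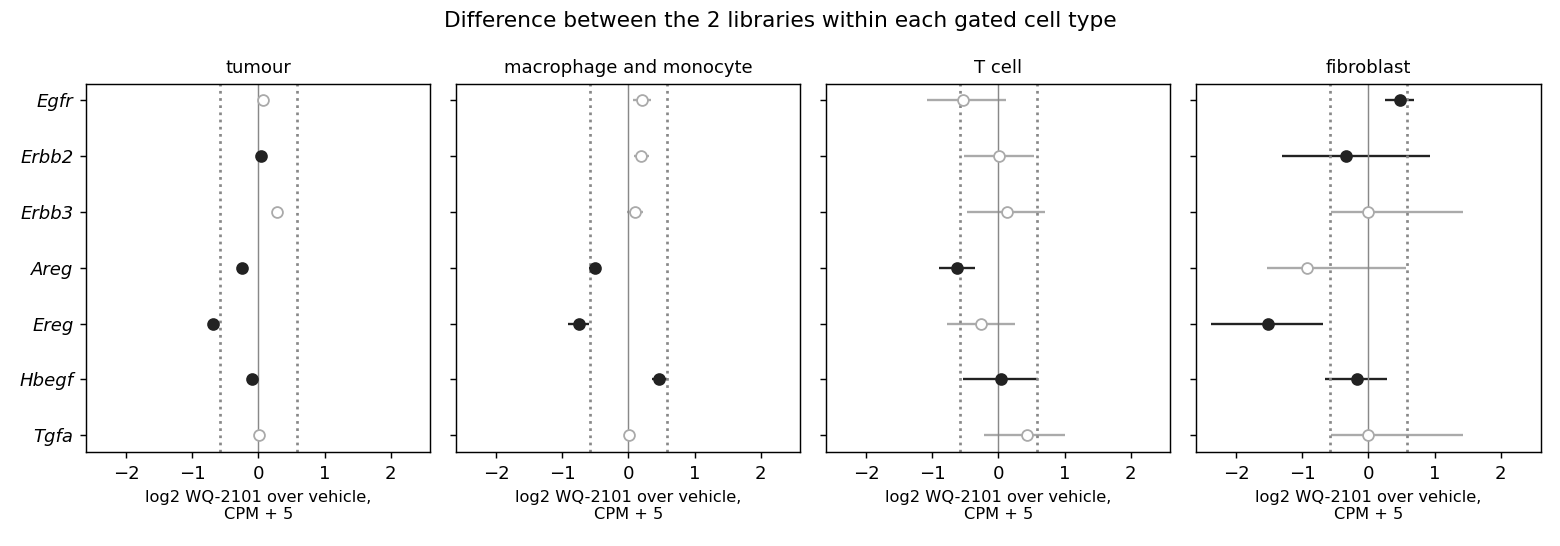
Log2 ratio of WQ-2101 over vehicle in CPM plus 5 for each gene in 4 gated cell types, with 95% intervals from counting error; filled points have a mean of at least 5 CPM and dotted lines mark 1.5-fold. Ereg lies left of the line in tumour cells (-0.68), macrophages (-0.75) and fibroblasts (-1.52), and Areg in T cells (-0.62).

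Ereg was lower across most tumour clusters, and in macrophages the widest gap lay in 1 cluster. Clusters were built on all variable genes, so values inside them are descriptions. Ereg was lower in WQ-2101 in 7 of 8 tumour clusters, and the interval of the ratio lay below 1 in 6. In the Il1rl1 and Tafa1 cluster it stood at 13.7 and 7.35 CPM. In the Cryab, Mt2 and Mt1 cluster, which made up 15.1% and 28.1% of tumour cells, it stood at 5.13 and 2.26 CPM. The exception, led by Gm26917 and Gm10800, had 3.77 and 7.33 CPM with a ratio interval of 0.22 to 23.3. Hbegf ran from 77.4 to 204 CPM over the tumour clusters in vehicle and from 83.4 to 166 CPM in WQ-2101, with a ratio from 0.813 to 1.42. It was highest in both libraries in the cluster led by the interferon-inducible genes Iigp1, Gm4951 and Cxcl10.

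Among macrophages the Cxcl3, Mmp12 and Mmp13 cluster was highest for both neighbours. It held Areg at 224.5 and 167 CPM (ratio 0.743, 0.640 to 0.861) and Ereg at 47.9 and 33.9 CPM (ratio 0.709, 0.503 to 0.983). The Chil3, Thbs1, Plcb1 and Ccr2 cluster, which includes the monocyte gene Ccr2 among its leading genes, showed the widest gap, with Areg at 92.5 and 38.3 CPM (ratio 0.414, 0.334 to 0.508) and Ereg at 20.4 CPM (175 UMIs) and 2.55 CPM (7 UMIs). These cells were 25.5% of the class in vehicle and 9.78% in WQ-2101. By contrast the cluster led by MHC class II genes held Areg at 49.3 and 51.1 CPM, with a ratio of 1.04 (0.922 to 1.16). The Ccl12 and Pf4 cluster held Areg at 23.4 and 29.7 CPM, a ratio of 1.27 (1.05 to 1.53). Ereg there was at 4.51 and 4.31 CPM, a ratio of 0.954 (0.586 to 1.53). The MHC class II cluster was 31.5% and 36.5% of the class, and the Ccl12 cluster 26.3% and 23.6%. Hbegf had a ratio above 1, with an interval that excluded 1, in the Chil3, the MHC class II and the Ccl12 clusters, and of these the Ccl12 and Pf4 cluster had the highest ratio, at 17.7 and 34.7 CPM.

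**Figure D4:**
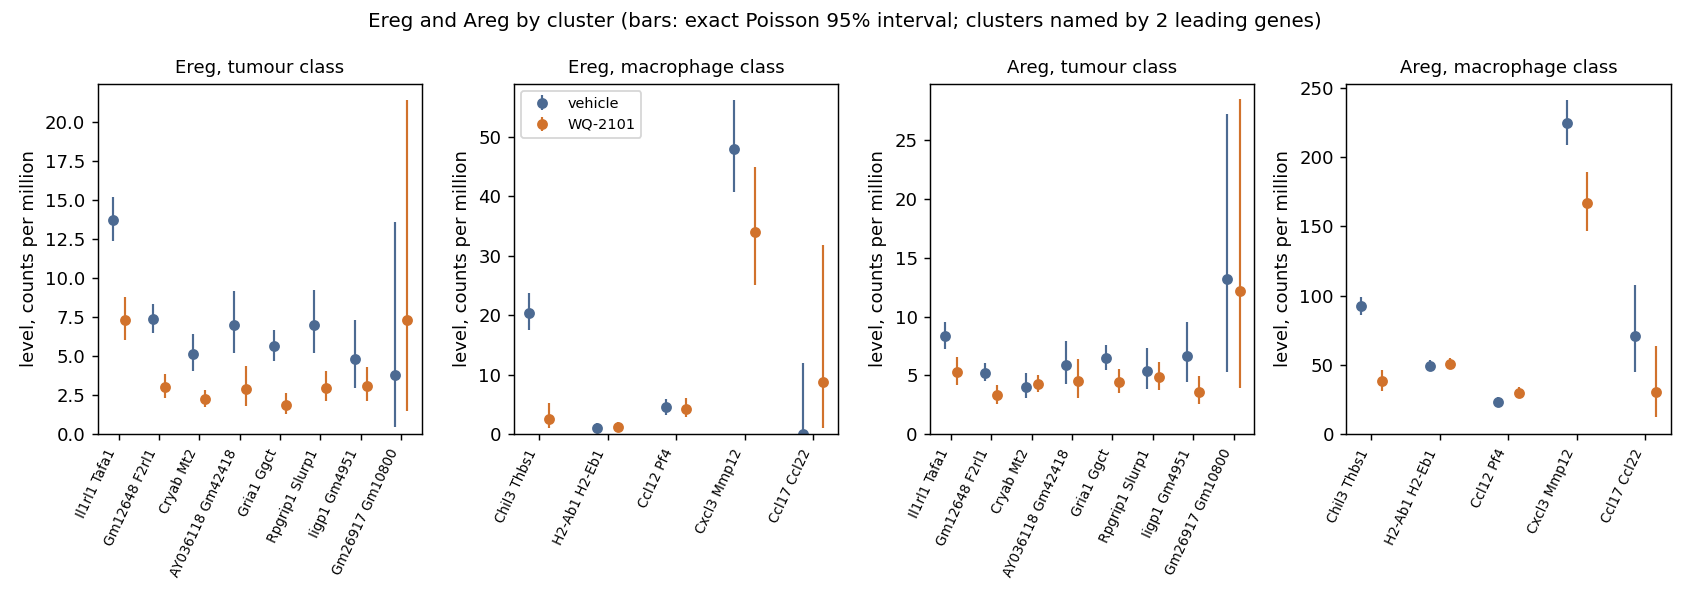
Ereg and Areg levels (CPM, linear axis from 0) in 8 clusters of the tumour class and 5 of the macrophage class, each with at least 50 cells in each library, with exact Poisson 95% intervals; clusters are named by 2 leading genes. Ereg stands at 20.4 and 2.55 CPM in the Chil3 and Thbs1 cluster and Areg is highest in the Cxcl3 and Mmp12 cluster, at 224.5 and 167 CPM.

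Within T cells, the Areg level was highest in cells with a UMI of Foxp3, the transcription factor of regulatory T cells. Foxp3-positive cells without Cd8a or Cd8b1 held 693 CPM (576 to 827, 49 cells) in vehicle and 583 CPM (452 to 739, 37 cells) in WQ-2101. A UMI was seen in 57.1% of them (42.2 to 71.2) and 56.8% (39.5 to 72.9), at median depths of 2536 and 2480 UMIs. Cells with Cd8 and no Foxp3 held 20.5 CPM (13.2 to 30.5, 292 cells) and 11.4 CPM (6.07 to 19.5, 333 cells), and 2.05% and 2.40% of them had a UMI. T cells with no UMI of Foxp3, Cd8 or the gamma-delta receptor genes held 168 CPM (135 to 206) and 109 CPM (84.7 to 138), and 15.2% (10.7 to 20.8) and 6.99% (4.32 to 10.6) of them had a UMI. The median depths of these cells were 2297.5 and 1901 UMIs and the shares are not thinned. The CPM intervals of the libraries overlapped both in these cells and in Foxp3-positive cells. Whether the subsets differ in their response was not tested. Cells with gamma-delta genes only, 28 and 16 in number, had 13 and 1 Areg UMIs. The 4 and 5 cells with both Foxp3 and Cd8 had 15 and 14 Areg UMIs, at 324 and 619 CPM. By UMIs, Foxp3-positive cells without Cd8 had 123 and 68, and T cells with none of these genes 92 and 69. Macrophage markers summed to 278 and 270.0 CPM over T cells, against 14115 and 12101 CPM in macrophages. With free RNA subtracted, T cell Areg was 131 and 83.3 CPM.

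**Figure D5:**
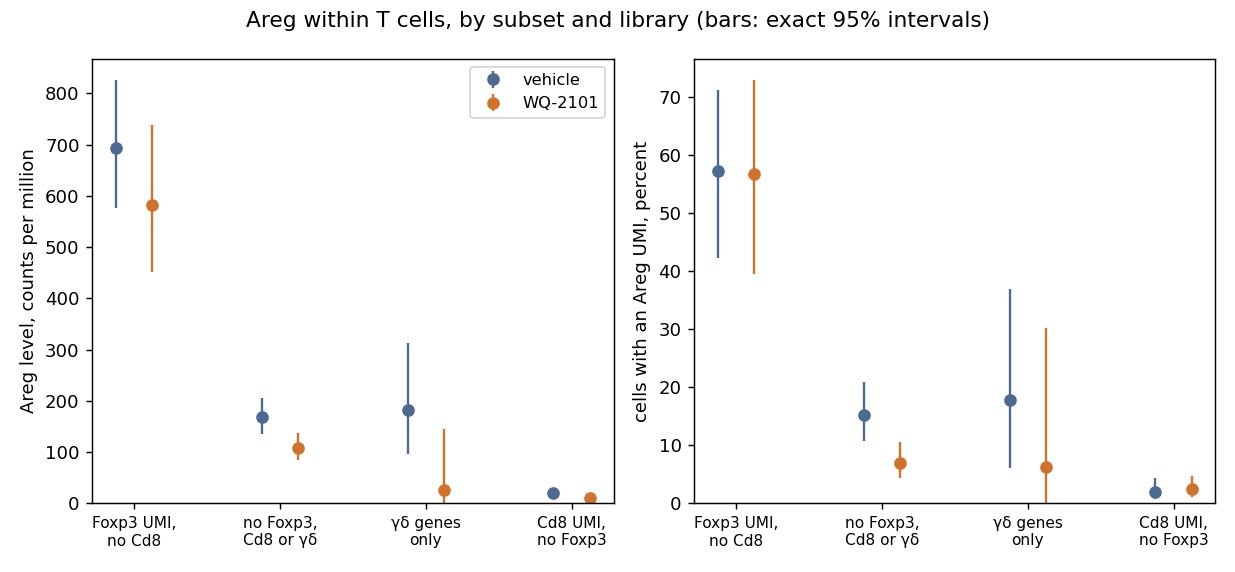
Areg level (left, CPM) and percent of cells with an Areg UMI (right) in 4 subsets of T cells, split by UMIs of Foxp3, Cd8a or Cd8b1 and gamma-delta receptor genes, by library, with exact 95% intervals. Of these 4, Foxp3-positive cells without Cd8 are highest, at 693 and 583 CPM and 57.1% and 56.8% of cells, and Cd8-positive cells lowest, at 20.5 and 11.4 CPM.

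Nrg1, the neuregulin that binds ERBB3 and ERBB4, stood at 166 and 206 CPM in tumour cells, a ratio of 1.24 (1.22 to 1.26), and was higher in WQ-2101 in 8 of 8 tumour clusters. In macrophages it was at 194 and 247 CPM, and tumour cells held 69.8% and 72.8% of its UMIs beside 69.4% and 70.9% of all UMIs. Btc, betacellulin, another EGFR ligand, was tumour-borne at 36.5 and 38.9 CPM, with 94.7% and 88.9% of its UMIs there. Egf was at 1.35 and 1.59 CPM in tumour cells, and Epgn had 7 and 5 UMIs there. Of the 8 remaining receptors and ligands 2 were measured in tumour cells and 2 in macrophages, and none was past the fold.

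The pathway lists below were chosen with earlier results of these data known. Of 6 shedding genes, all measured, 1 was past the fold in tumour cells: Timp3, an inhibitor of ADAM17, at 160 and 248 CPM (ratio 1.55, 1.52 to 1.58). Timp3 was also read higher in macrophages, at 7.65 and 26.7 CPM, and lower in fibroblasts, at 1177 and 739 CPM. The macrophage reading stands beside a rise of summed tumour markers in that class from 67.9 to 142 CPM, whose part in it was not tested. Adam17, the main sheddase, was at 38.2 and 35.4 CPM in tumour cells and 129 and 123 CPM in macrophages. None of 8 measured adaptor and trafficking genes, of 11 of 12 measured brakes on the receptor and ERK, and of 9 measured ERK-responsive genes was past the fold in tumour cells, with median log2 ratios of -0.01, -0.04 and -0.08. Errfi1, an inhibitor of EGFR that the pathway itself induces, was at 383 and 305.5 CPM (ratio 0.798), and Dusp6, an ERK phosphatase, at 46.3 and 43.45 CPM. In macrophages Spry2, a brake, was higher at 5.23 and 11.2 CPM and Etv4, an ERK-responsive transcription factor, at 3.09 and 7.87 CPM, beside the rise of tumour markers in that class, whose part in it was not tested.

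Immediate early genes are induced by growth factors and also by tissue dissociation. In tumour cells 2 of 10 were past the fold, both lower in WQ-2101, Fos at 585 and 356 CPM and Fosb at 275 and 149.9 CPM. Hbegf followed this list within each library. In the 25% of tumour cells with the highest summed level of the list, Hbegf was at 205 CPM (199 to 210) in vehicle and 175 CPM in WQ-2101, and in the lowest 25% at 64.0 and 67.2 CPM. Ereg was at 10.98 and 4.72 CPM in the highest 25% and at 5.58 and 2.18 CPM in the lowest, lower in WQ-2101 at both ends. These are ranges of a score and not cell types, and the part of dissociation in these values was not tested. They were cut within each library. The highest 25% began at 5699 CPM of the list in vehicle and 4403 CPM in WQ-2101, so the libraries are not matched for it. In macrophages Areg and Ereg followed a list of hypoxia genes. Areg was at 130.2 and 85.3 CPM in the highest 25% and at 25.1 and 24.5 CPM in the lowest, and Ereg at 26.6 and 12.7 CPM against 2.10 and 1.36 CPM. The median depth was 6847 and 5325 UMIs in the highest 25% and 6362.5 and 4750 UMIs in the lowest. Here too the cut was made within each library, and the highest 25% began at 665 and 928 CPM of the hypoxia list.

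Genes with the most similar pattern were sought over 12 profiles, 6 gated classes in each of the 2 libraries, among 9874 genes. Likeness was measured as Pearson's r of log2 CPM plus 5, given as a description, since the profiles of a library share its depth and free RNA. For Egfr they were Smim1, Kcnq3 and Ror1 (r from 0.987 to 0.991). For Erbb2 they were Tbx18, Cfap69 and Garem1 (0.992 to 0.997). For Areg they were Ms4a6b, Gna15 and Lpxn (0.947 to 0.965). For Ereg they were Ssr1, Tm9sf3 and Sdc1 (0.941 to 0.968), and for Hbegf Mapk6, Phlda1 and Atf5 (0.927 to 0.9505). Erbb3 was most like Stard7, Gsdme and D230025D16Rik and Tgfa most like G730003C15Rik, Sertad3 and Narf, where both members peak in neutrophils on 1 UMI.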

How the data were processed

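Each library was deposited by the authors as a matrix of raw UMI counts per gene and cell barcode. Per the file headers it was written by Cell Ranger 7.2.0, while the submitters' processing notes name Cell Ranger 2.2.2 and GRCm38. Barcodes with at least 500 UMIs, 300 genes and at most 15% mitochondrial UMIs were kept, and called doublets were removed (545 and 753). Cells were gated on marker genes: a class needed 2 markers, and cells with a second class at 0.25 or more of the first were called mixed (410 and 1962 cells) and those without a class none (898 and 1149). The gate was loosened, and 16 listed markers were dropped, after their levels by cluster were seen. Near the cut lay 2.64% and 4.15% of tumour cells and 2.51% and 3.53% of macrophages. CPM is UMIs per 1000000 UMIs of the class. Ratios printed are of CPM. Log2 ratios and the 1.5-fold rule use CPM plus 5, and genes with a mean under 5 CPM were left out of the counts past the fold. Intervals are exact Poisson, Clopper-Pearson or conditional binomial. The members and lists were chosen with earlier results of these data known. The similar genes named are the 3 with the highest correlation per member. The scripts were tested on simulated data. Tools were Python 3.11.15, scanpy 1.11.5, scipy 1.17.1 and igraph 0.11.9. Replicates were absent, so no p-value was computed. A small cluster of the macrophage class is not reported here.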

Additional observations from a re-analysis of the deposited data

How the results depend on the processing

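Over 12 alternatives, 10 planned and 2 chosen after seeing the data (clusters weighted to equal shares, and leaving out the low-UMI mixture), 21 log2 ratios gave 251 values, of which 224 lay inside the interval of counting error and 27 outside it. The count of the genes past 1.5-fold in tumour cells went from 1 to 0 with clusters at equal shares. In macrophages it went from 1 to 2 with cells weighted alike (Areg and Ereg) and to 2 after thinning to 2000 UMIs (Ereg and Hbegf), and at equal cluster shares it stayed 1 but the gene was Hbegf. In T cells it went from 1 to 0 with classes from Leiden clusters. The share of all genes past the fold was not counted under these alternatives, so these counts have no background beside them. It was counted in the main data with other filters on the mean CPM. The percent of all genes past the fold there was 0.566 in tumour cells and 1.77 in macrophages with no filter on low values. In T cells it was 3.46 with a mean of at least 20 CPM. Of the other ratios, Ereg in fibroblasts was past the fold under all 12 alternatives, with log2 ratios from -1.78 to -1.50, and in tumour cells and macrophages under 11 of 12. Fibroblast Egfr changed sign under 1 of 12. The causes were not tested. No paired analysis was possible because each group has 1 library, and for the same reason none could be left out. With 1 library per group, differences between mice, tumours and libraries cannot be told apart from the treatment. Classes under 60 cells, such as WQ-2101 fibroblasts, limit what the counts can show.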

Other observations

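Barcodes outside the gated classes gave the same members at the following levels. In barcodes with markers of more than 1 class, Areg stood at 41.9 CPM in vehicle and 15.8 CPM in WQ-2101, Ereg at 11.5 and 3.63 CPM, Hbegf at 87.8 and 79.97 CPM, and Egfr at 23.7 and 6.86 CPM. In barcodes without a class, Areg stood at 28.1 and 11.1 CPM, Ereg at 10.7 and 3.48 CPM, and Hbegf at 91.2 and 77.0 CPM. The low-UMI mixture supplied 10.7% of the mixed barcodes in vehicle and 75.3% in WQ-2101.

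Macrophage Areg and Ereg ran opposite to a list of interferon gamma genes. In the 25% of macrophages highest for that list Areg was at 40.0 and 23.4 CPM and Ereg at 4.598 and 0.42 CPM, and in the lowest 25% Areg was at 94.6 and 70.6 CPM and Ereg at 19.6 and 7.18 CPM. Tumour-cell Hbegf ran with the same list, at 147 and 139.8 CPM in the highest 25% and 108 and 95.6 CPM in the lowest. Inside the Foxp3-positive T cells without Cd8, Hbegf was at 39.4 CPM (7 UMIs) and 68.5 CPM (8 UMIs), beside 14.5 and 14.9 CPM in Cd8-positive cells.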
